A study of Mus musculus with 12 samples.

Results

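The 75 genes described here code for the secreted and membrane-bound metalloproteinases of the matrix and cell surface, their ADAMTS-like relatives and their tissue inhibitors. They were taken from the deposited count table by symbol: every entry for a single locus that carries an Mmp, Adam, Adamts or Adamtsl symbol with a number, or Timp1 to Timp4. That gave 75 of the 20114 single-locus entries, and 57 of the 75 had enough counts to be tested. The remaining 18 stayed under the filter on low counts. In 16 of the 75 entries the name joins the member with another symbol, so the count may hold reads of another gene, and 14 of these 16 were tested.

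The 12 RNA-seq libraries come from mammary epithelial cells of mice, sorted by reporter color into 3 groups of 4 libraries, all of adult females aged 9 weeks. The mice had a mixed background (129X1/SvJ, with C57BL/6 and with Swiss Webster). All groups carried the mT-mG reporter and the SmoM2 allele, an activated form of Smoothened, which passes on the Hedgehog signal inside the cell. Recombined cells (mT-mG/SmoM2;MMTV-Cre) were green with EGFP and SmoM2 positive, since Cre, driven by the MMTV promoter, had switched on both alleles. Unrecombined cells had the same genotype but were red with tdTomato and SmoM2 negative. Wild type cells (mT-mG/SmoM2;+) had no Cre and were also red. SmoM2, recombination, reporter color and the cells in which the MMTV promoter is active differ together between green and red cells, and cannot be told apart. The labels do not say which animals gave each library, so p-values measure only the spread between these libraries.

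Matrix metalloproteinases (MMPs) are zinc enzymes that cut collagens, other matrix proteins and many secreted factors, either after secretion or, for the membrane-type enzymes, at the cell surface. ADAMs sit in the plasma membrane, where the proteolytic ones release the outer parts of growth factors, receptors and adhesion proteins. ADAMTS enzymes are secreted, bind to matrix and cut proteoglycans or trim procollagens, and the TIMPs block the active site of MMPs and of some ADAM and ADAMTS enzymes. In the mammary gland, stromal MMPs and the release of amphiregulin by ADAM17 are known for their part in duct growth and branching.

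Total counts lay between 19581993 and 34779433 per library, and the members took 0.179% to 0.380% of them. Levels are given as CPM, counts relative to the size of the library, after scaling by the trimmed mean of M values, and differences as log2 fold changes with their standard error (SE) from the quasi-likelihood test of edgeR, with a Benjamini-Hochberg adjusted p over 14039 loci and a threshold of 0.05. The Hedgehog target Ptch1 lay between 133 and 809 CPM in recombined libraries, 34.5 and 38.1 CPM in wild type libraries and 24.8 and 61.3 CPM in unrecombined libraries. Recombined libraries 3 and 4 lay far from the rest along principal component 1 (31.4% of variance). Summed salivary gland markers exceeded 500 CPM in 5 libraries (numbers 1 and 2 of both groups with Cre, and wild type 2), reaching 51499 CPM, and stayed under 1 CPM in the other 7.

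Luminal keratins and Epcam were present in all 12 libraries, with the 5 luminal markers summing to between 2239 and 7750 CPM. Markers of other cells were present as well, and they moved with the groups. The 8 fibroblast markers (among them Mfap5, Col3a1, Col1a1 and Pdgfra) summed to between 1387 and 3392 CPM in wild type, 5113 and 7268 CPM in unrecombined and 205 and 571 CPM in recombined libraries, and 8 of 8 were lower in recombined than in either red group. None of the 8 was at 0 in recombined cells: Col3a1 kept 15.1 to 30.9 CPM there, against 313 to 989 CPM in wild type and 1314 to 2302 CPM in unrecombined libraries. The 8 basal and myoepithelial markers (among them Trp63, Krt14, Myh11 and Mylk) summed to between 724 and 920 CPM in wild type, 361 and 996 CPM in unrecombined and 1660 and 7388 CPM in recombined libraries, and 7 of 8 rose in recombined cells relative to wild type. Hormone-sensing luminal markers summed to between 2646 and 5249 CPM in wild type and 592 and 1584 CPM in recombined libraries, and 5 of 6 were lower. Macrophage markers summed to at most 51.4 CPM in any library, neutrophil markers to at most 2.28 CPM and adipocyte markers to at most 0.755 CPM. The part of these cell types in the changes of the proteases was not tested. In bulk libraries, fewer cells of a type and less RNA per cell cannot be told apart.

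**Figure D1:**
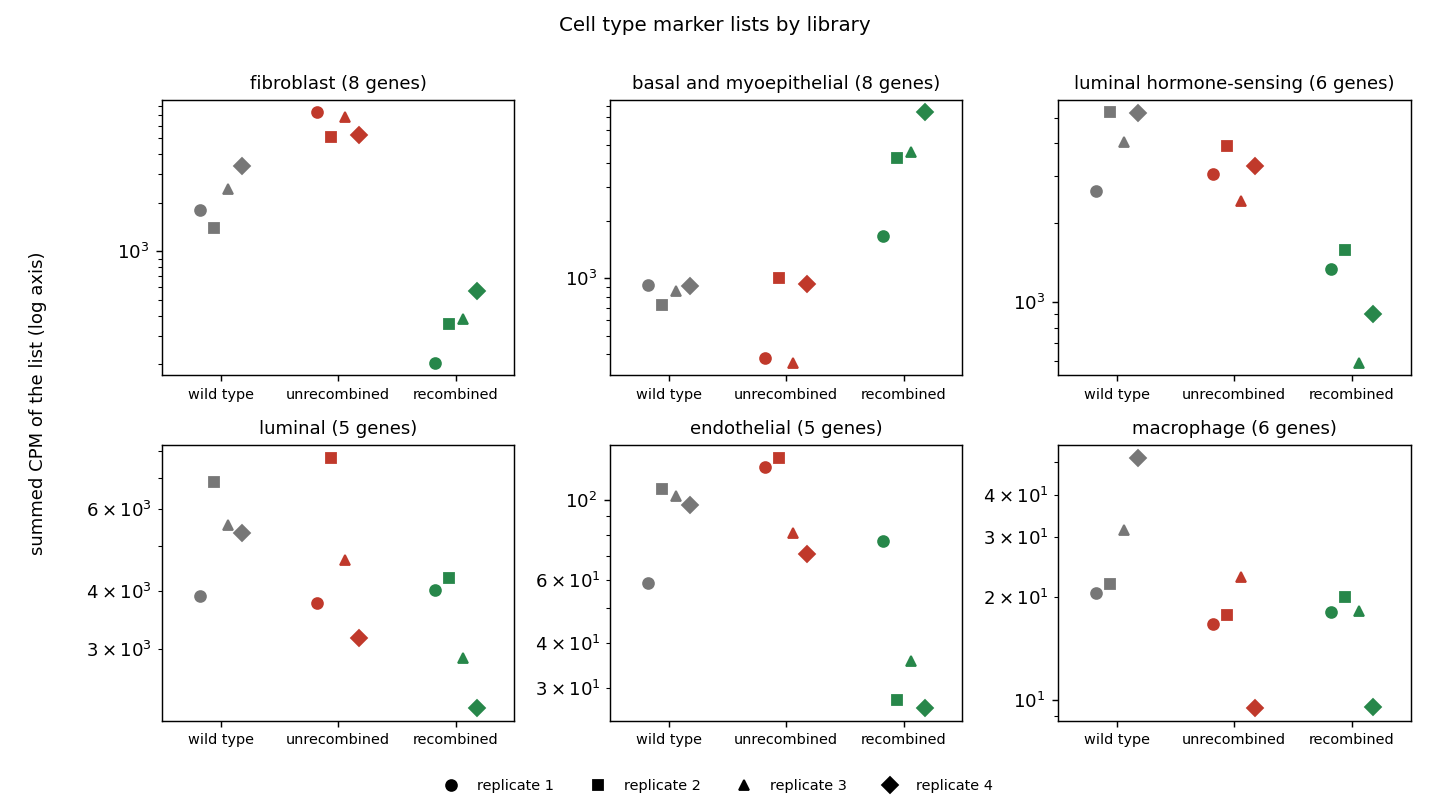
Summed CPM of 6 marker lists in each of the 12 libraries, by group, on log axes, with 1 symbol shape per replicate number. Fibroblast markers sit at 205 to 571 CPM in recombined libraries, below the wild type range of 1387 to 3392 CPM and the unrecombined range of 5113 to 7268 CPM, and basal markers are highest in recombined libraries.

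Recombined cells differed from wild type cells in 13 of the 57 tested members. The secreted enzymes Adamts1, Adamts17 and Adamts18 and the inhibitor Timp3 were higher. Adam10, Adam12, Adam23, Adamts5, Adamts12, Adamts19, Mmp3, Mmp19 and Mmp27 were lower. Over all loci tested, 6.55% passed in this comparison, 4.17% higher and 2.38% lower, so that 4 of 57 higher and 9 of 57 lower members are to be read against those shares. Against unrecombined cells, 15 of 57 members passed: the same 3 ADAMTS genes were higher, the same 9 genes were lower, and Adam19, Adam33 and Adamts15 were lower too. There the background was 5.22% of all loci, 3.08% higher and 2.14% lower. Both comparisons use the same recombined libraries, so their calls are not independent. Between unrecombined and wild type cells no member passed with edgeR, while 10 of 57 had an unadjusted p under 0.05, as did 541 of all 14039 loci (3.85%).

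Members whose groups did not overlap were counted as well. Against wild type, all 4 recombined libraries were above all 4 wild type libraries in 4 members and below them in 14, with 6.33% and 5.91% of all loci doing so. Against unrecombined cells the counts were 4 and 15, with 5.57% and 5.71% of all loci. The median log2 fold change over the tested members was -0.07 against wild type and -0.51 against unrecombined cells, beside -0.02 and -0.01 over all loci.

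The counts rest partly on recombined libraries 3 and 4 and on the number of libraries. Without these 2 libraries, 8 members passed against wild type and 9 against unrecombined cells, and all of them were among the 13 and 15. Without the 5 libraries with salivary gland markers, 11 passed against wild type, 8 of them among the 13, and 10 against unrecombined cells, 9 of them among the 15. The library numbers in the labels fall into a series starting with 23 and a series starting with 24, whose meaning is not stated. Within the first, 2 members passed against wild type and 6 against unrecombined cells. Within the second, which has 1 wild type library assumed to vary like the rest, 0 of 63 tested members passed against wild type with edgeR (16 at an unadjusted p under 0.05) and 3 against unrecombined cells. Every call of the 12-library fit kept its direction in both series. Each library was also left out in turn. Where a member passed only without the library closest to the other group, that pass is no added support for a difference.

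**Figure D2:**
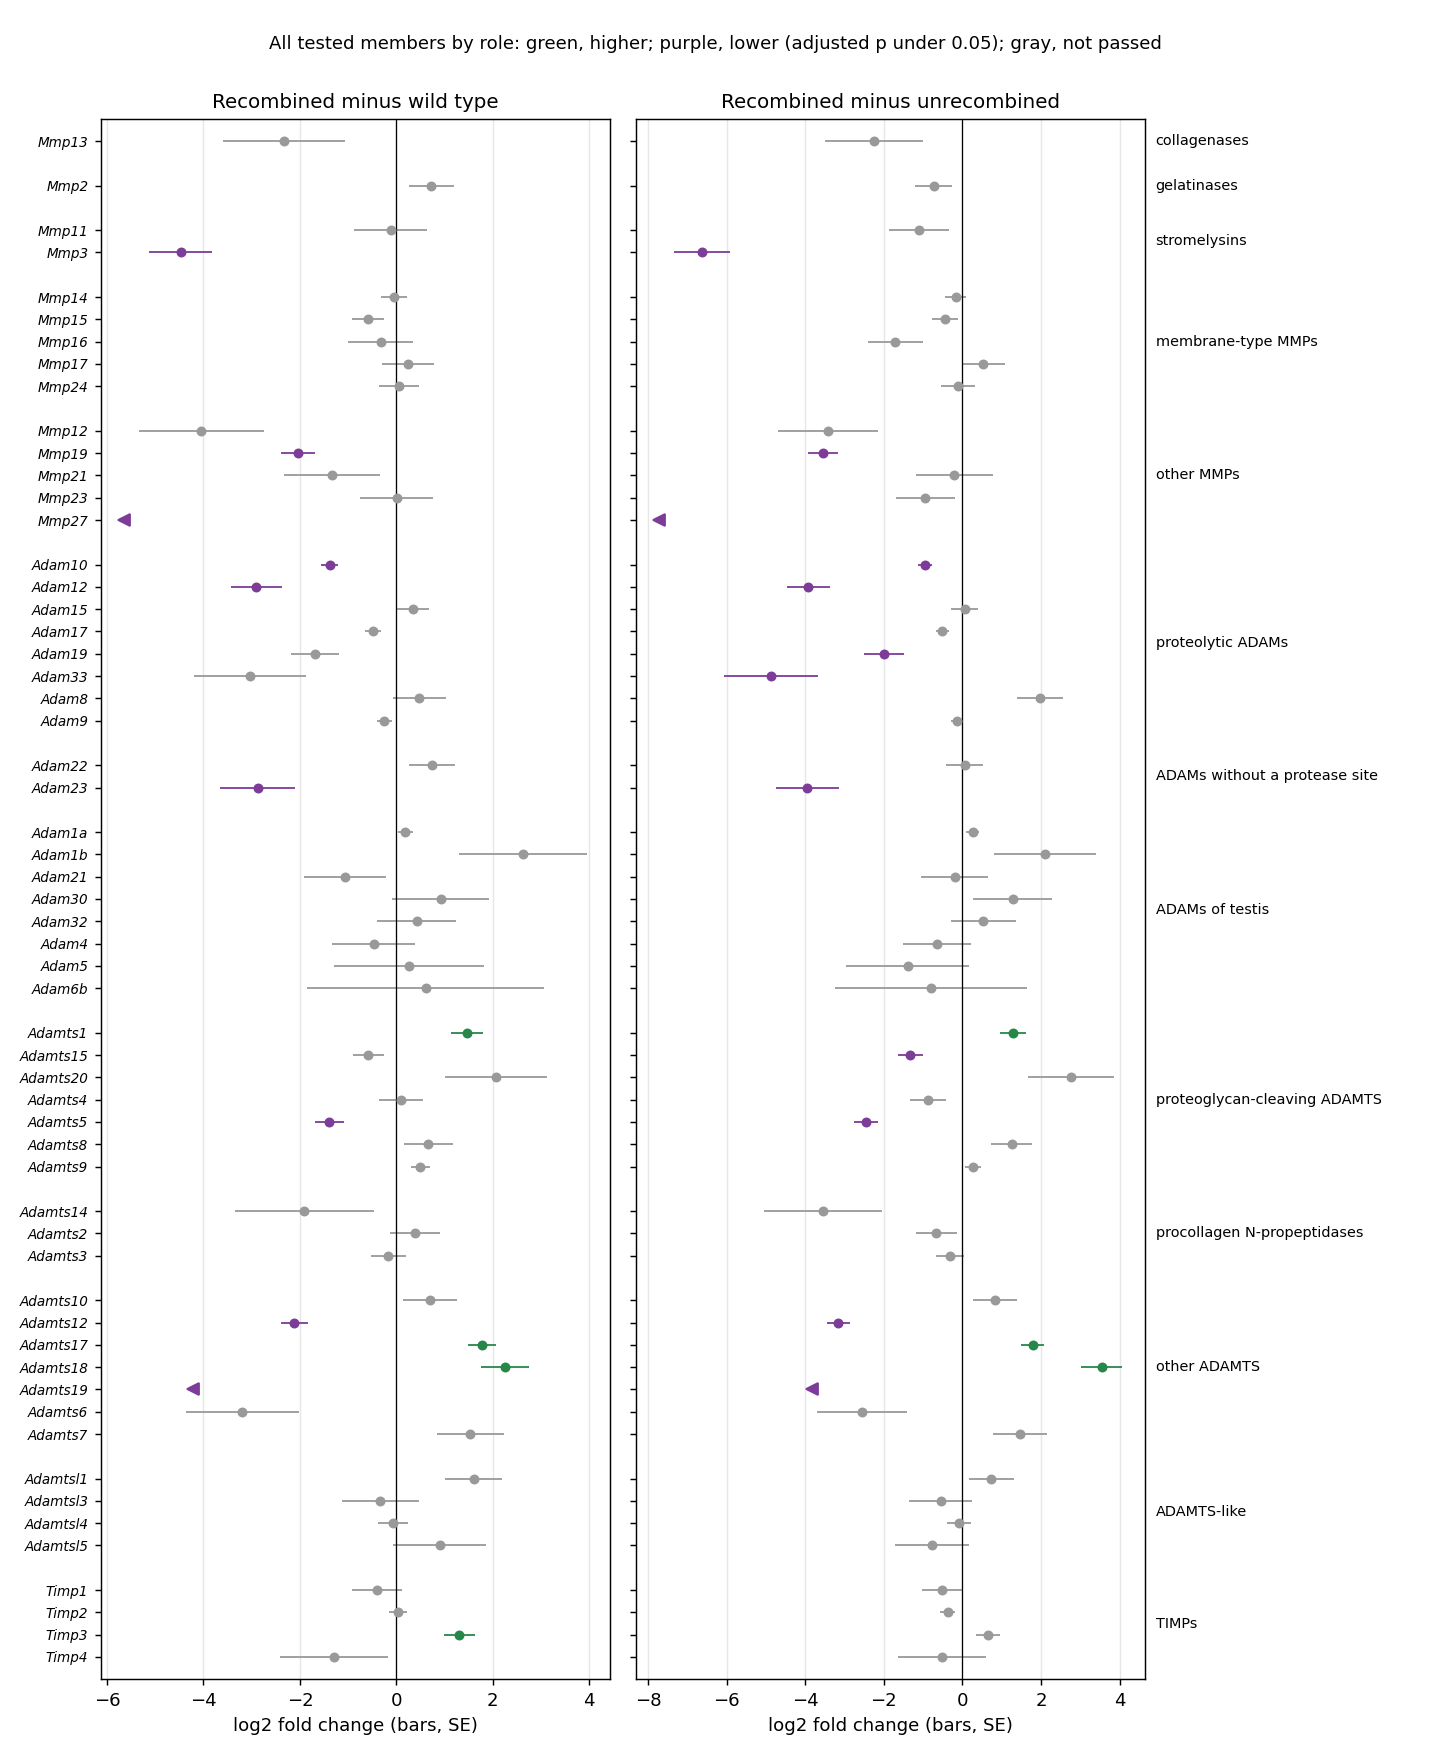
Log2 fold changes of the 57 tested members, recombined minus wild type on the left and recombined minus unrecombined on the right, with bars of 1 SE and genes grouped by role. Triangles mark Mmp27 and Adamts19, which have no count in recombined libraries, at a lower bound that covers counting noise only. The 9 members lower in both panels include members of all 3 protease families.

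Per length of exon, which allows levels of different genes to be compared, Adamts1 and Adam10 were the most abundant of the 59 members with an entry of their own. Timp3, whose entry also names Syn3, was not ranked. Its mean level was 297 CPM in wild type, 471 CPM in unrecombined and 737 CPM in recombined libraries. In wild type libraries Adamts1 reached 104 ± 40.0 CPM per kb (SD, n = 4) and Adam10 reached 99.0 ± 19.1 CPM per kb, which overlap. Timp2 followed with 32.8 ± 8.53, then Mmp2 with 18.9 ± 8.71 and Mmp14 with 15.2 ± 4.42 CPM per kb. Mmp2 and Mmp14 did not differ beyond their spread, and Adam9, Adamts4 and Mmp3, at 13.4, 12.8 and 10.5 CPM per kb, came next. In recombined libraries the level of Adamts1 was 287 ± 79.6 CPM per kb and that of Adam10 was 38.0 ± 7.45 CPM per kb, and their ranges did not overlap. They did not overlap in unrecombined libraries either, where Adamts1 lay between 90.8 and 179.8 CPM per kb and Adam10 between 66.1 and 86.8 CPM per kb. Mmp3 held the eighth place among the 59 in wild type cells, the fourth in unrecombined cells at 46.5 ± 16.8 CPM per kb, and place 28 in recombined cells at 0.468 ± 0.566 CPM per kb. Adamts18 went the other way, from place 16 in wild type cells to the eighth in recombined cells.

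**Figure D3:**
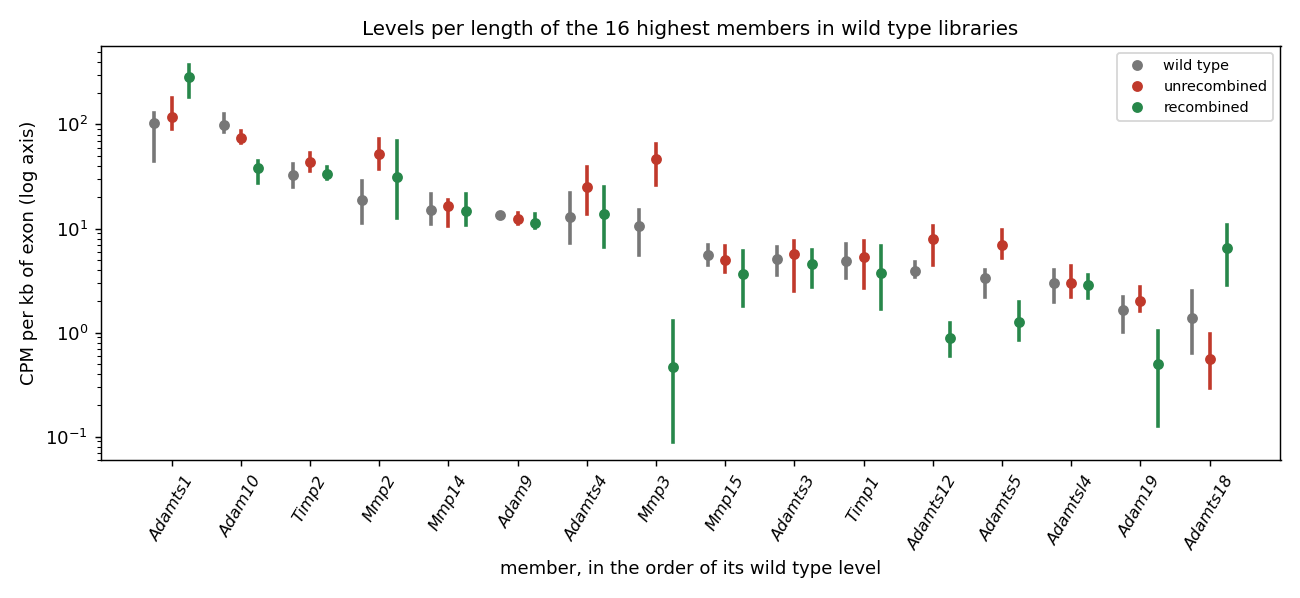
CPM per kb of exon for the 16 members highest in wild type cells, on a log axis, with points for the mean of 4 libraries and lines from the lowest to the highest library. Adamts1 and Adam10 overlap in wild type cells and do not in unrecombined or recombined cells, and Mmp3 spans from 0.468 CPM per kb in recombined to 46.5 CPM per kb in unrecombined cells.

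The sequences before the start of 4 of these genes are printed as examples of both directions. Mmp3 and Mmp27, both in a cluster of MMP genes on chromosome 9, were lower in recombined cells, and Adamts1 and Adamts18 were higher. Each is the 250 bases before the RefSeq start on the strand of the gene, in the build GRCm38.p6. Capitals mark a match to the letters of the AP-1 motif (TGAGTCA) or the TATA motif (TATAAA), searched on both strands.
Mmp3 (chr9:7445572-7445821, plus strand): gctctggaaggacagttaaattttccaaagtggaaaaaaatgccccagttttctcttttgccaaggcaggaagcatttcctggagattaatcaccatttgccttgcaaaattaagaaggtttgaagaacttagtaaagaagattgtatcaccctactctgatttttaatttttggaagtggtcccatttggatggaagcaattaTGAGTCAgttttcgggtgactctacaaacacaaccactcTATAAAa
Mmp27 (chr9:7571146-7571395, plus strand): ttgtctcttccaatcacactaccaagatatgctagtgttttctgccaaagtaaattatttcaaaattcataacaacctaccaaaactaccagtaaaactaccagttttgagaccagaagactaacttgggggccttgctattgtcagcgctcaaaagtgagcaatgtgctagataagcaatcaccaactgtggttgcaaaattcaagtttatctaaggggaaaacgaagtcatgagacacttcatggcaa
Adamts1 (chr16:85803114-85803363, minus strand): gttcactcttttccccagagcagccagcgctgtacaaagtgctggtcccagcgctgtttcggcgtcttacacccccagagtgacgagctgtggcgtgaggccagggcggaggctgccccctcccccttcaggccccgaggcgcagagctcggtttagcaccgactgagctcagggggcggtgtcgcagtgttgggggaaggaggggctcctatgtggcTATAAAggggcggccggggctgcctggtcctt
Adamts18 (chr8:113848840-113849089, minus strand): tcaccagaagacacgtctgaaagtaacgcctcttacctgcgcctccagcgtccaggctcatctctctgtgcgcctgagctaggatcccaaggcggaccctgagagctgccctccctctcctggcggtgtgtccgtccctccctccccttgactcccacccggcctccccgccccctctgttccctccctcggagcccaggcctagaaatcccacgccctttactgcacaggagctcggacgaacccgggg
In Mmp3 the AP-1 match begins 46 bases before the start and the TATA match 7 bases before it. Adamts1 has a TATA match 32 bases before its start, and the windows of Mmp27 and Adamts18 have neither motif. A GLI motif (GACCACCCA), the sequence bound by the factors at the end of the Hedgehog pathway, was in none of the 4. RefSeq windows were found for 46 of the 75 members, 51 windows in all. AP-1 matched in 7 of the 51 windows, those of Mmp3, Mmp7, Mmp10, Mmp12, Mmp13, Mmp1a and Adam19. The GLI motif matched in 0 and the TATA motif in 9. Over the 32851 windows of all genes, AP-1 matched in 4.46%, GLI in 0.225% and TATA in 12.4%. The motifs do not overlap each other, and a match is a run of letters, not a measured binding site.

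Mmp3, stromelysin-1, which cuts basement membrane and proteoglycans and activates other MMPs, had the largest fall among members with counts in every recombined library (chromosome 9, 7445821 in mm9). Wild type libraries 1 to 4 had 13.7, 10.1, 24.8 and 27.1 CPM, unrecombined libraries 118, 47.7, 97.2 and 72.3 CPM and recombined libraries 0.567, 0.293, 0.162 and 2.35 CPM. The 3 groups did not overlap at all, with unrecombined cells highest and recombined cells lowest. The log2 fold change was -4.47 ± 0.66 against wild type (adjusted p = 0.00135, edgeR) and -6.62 ± 0.71 against unrecombined cells (adjusted p = 9.15e-05). Unrecombined cells exceeded wild type cells by 2.15 ± 0.57, which did not pass with edgeR (adjusted p = 0.512) but passed with DESeq2 (adjusted p = 0.0234), limma-voom (0.0328) and its version that weights libraries (0.00649).

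Mmp27, a little-studied MMP in the same cluster, had 0 counts in all 4 recombined libraries. Its level was 1.46, 1.35, 1.40 and 1.58 CPM in wild type libraries 1 to 4, a narrow range, and 12.4, 0.339, 7.51 and 4.04 CPM in unrecombined libraries. A count of 0 was taken to allow up to 3 counts over the group. By group means, Mmp27 was then at least 50-fold lower in recombined than in wild type cells (adjusted p = 0.00558, edgeR). It was at least 210-fold lower than in unrecombined cells (adjusted p = 0.00139). This limit covers counting noise only, not the spread between libraries. The call against wild type was lost with limma-voom (adjusted p = 0.103, and 0.256 with library weights) and without recombined 3 and 4 (0.0584). The call against unrecombined cells was lost with library weights in limma-voom (adjusted p = 0.128).

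Mmp19, which cuts basement membrane proteins and shares its entry with 1110012D08Rik, showed the same order of groups as Mmp3. Wild type libraries had 24, 27.6, 38.9 and 33.9 CPM, unrecombined libraries 140.4, 52.9, 95.1 and 66.4 CPM and recombined libraries 5.32, 4.18, 11.8 and 8.95 CPM, with no overlap between any of the groups. It fell by a log2 fold change of -2.04 ± 0.36 against wild type (adjusted p = 0.00398, edgeR) and -3.56 ± 0.38 against unrecombined cells (adjusted p = 7.4e-05). The difference between the red groups was 1.51 ± 0.35 (adjusted p = 0.329 with edgeR, 0.0105 with DESeq2 and 0.0231 with weighted limma-voom).

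By group mean, the 3 MMPs that fell had the order of the fibroblast markers, highest in unrecombined and lowest in recombined cells, although Mmp27 in unrecombined 2 was below every wild type library. The low place of recombined cells follows from how these MMPs were picked, so only the order of the red groups was free. Adam12, Adam19, Adam23, Adam33, Adamts5, Adamts12 and Adamts15 had the same order of means, while Adam10 and Adamts19 were highest in wild type cells. Mmp2 did not have that order. The gelatinase Mmp2, which cuts denatured collagen and type IV collagen and is typical of stromal cells, had 34.7, 36.7, 72.7 and 88.7 CPM in wild type libraries 1 to 4, 225, 134, 169 and 114 CPM in unrecombined libraries and 39.0, 55.5, 213 and 78.9 CPM in recombined libraries. All unrecombined libraries were above all wild type libraries, but recombined libraries spanned both, with number 3 the highest. None of its differences passed (0.73 ± 0.47 against wild type, adjusted p = 0.43, -0.73 ± 0.47 against unrecombined cells, adjusted p = 0.457, and 1.46 ± 0.48 between the red groups, adjusted p = 0.874).

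Mmp14, the main membrane-type MMP, which cuts collagen at the cell surface and activates pro-MMP2, was at 56.0, 46.2, 62.6 and 89.4 CPM in wild type, 78.7, 44.7, 75.9 and 76.9 CPM in unrecombined and 44.9, 45.4, 64.6 and 90.4 CPM in recombined libraries. The groups overlapped, with log2 fold changes of -0.05 ± 0.27 against wild type (adjusted p = 0.946) and -0.17 ± 0.27 against unrecombined cells (adjusted p = 0.808). The other 4 membrane-type MMPs tested (Mmp15, Mmp16, Mmp17 and Mmp24) did not pass against either group with edgeR, and 1 of the 5 had an unadjusted p under 0.05 against unrecombined cells. That was Mmp16, whose entry also names mt3-mmp, at 42.6, 16.3, 15 and 19.7 CPM in unrecombined and 20.8, 2.05, 1.62 and 3.92 CPM in recombined libraries. It was lower in recombined cells in 4 of 4 pairs of the same number, as were many other members. The share of all loci with such pairs was not counted. With the replicate number as a block, Mmp16 passed (log2 fold change -2.20 ± 0.51, adjusted p = 0.0231, edgeR) where the unpaired fit gave -1.71 ± 0.70 (adjusted p = 0.202). Without recombined 1, the highest recombined library, Mmp16 passed against wild type as well (-1.82 ± 0.48, adjusted p = 0.0311).

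Mmp11, stromelysin-3, known from stroma around tumors, was low, at 2.73, 0.619, 4.54 and 2.37 CPM in wild type, 12.4, 2.19, 3.31 and 2.51 CPM in unrecombined and 1.40, 1.47, 0.808 and 5.77 CPM in recombined libraries, and its groups overlapped (adjusted p = 0.956 against wild type). Mmp12, macrophage elastase, whose entry also names Mmp1b, had 0.783, 0.890, 2.05 and 9.75 CPM in wild type, 1.88, 2.11, 2.59 and 2.11 CPM in unrecombined and 0.747, 0, 0 and 0 CPM in recombined libraries, below both red groups throughout. Its fitted log2 fold change against wild type was -4.04 ± 1.30 (adjusted p = 0.0835 with edgeR, 0.00645 with DESeq2), and against unrecombined cells -3.41 ± 1.27 (adjusted p = 0.156 with edgeR, 0.0334 with DESeq2). The call turned on recombined 1, the only recombined library with counts: without it edgeR gave an adjusted p of 0.0042 against wild type and 0.00583 against unrecombined cells, with no count left in the recombined group. Without the 5 libraries with salivary gland markers, recombined 1 among them, Mmp12 passed against wild type too (0.0365). The collagenase Mmp13 stayed at or under 3.09 CPM and did not pass, and neither did Mmp21 or Mmp23. Mmp7 (matrilysin) and Mmp9 (the second gelatinase, abundant in neutrophils) were under the filter, with at most 2 and 6 counts in any library. Mmp1a, Mmp10, Mmp28, Mmp8 and Mmp25 were under it as well, with at most 1 to 53 counts.

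Several of these genes are neighbors. Entries for 8 MMPs start between 7272513 and 7692110 on chromosome 9 in mm9, over 420 kb, and 4 of them were tested (Mmp13, Mmp12, Mmp3 and Mmp27). All 4 were below every wild type library in every recombined library, beside 5.91% of all loci. Against unrecombined libraries, Mmp3, Mmp12 and Mmp27 did not overlap either, beside 5.71% of all loci. Mmp13 did overlap there, with no count in the lowest unrecombined library. Mmp3 and Mmp27 passed, and Mmp12 and Mmp13 did not. For Mmp13 the highest recombined library had 0.192 and the lowest wild type library 0.204 CPM per kb. The margin of Mmp12 was narrow as well.

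**Figure D4:**
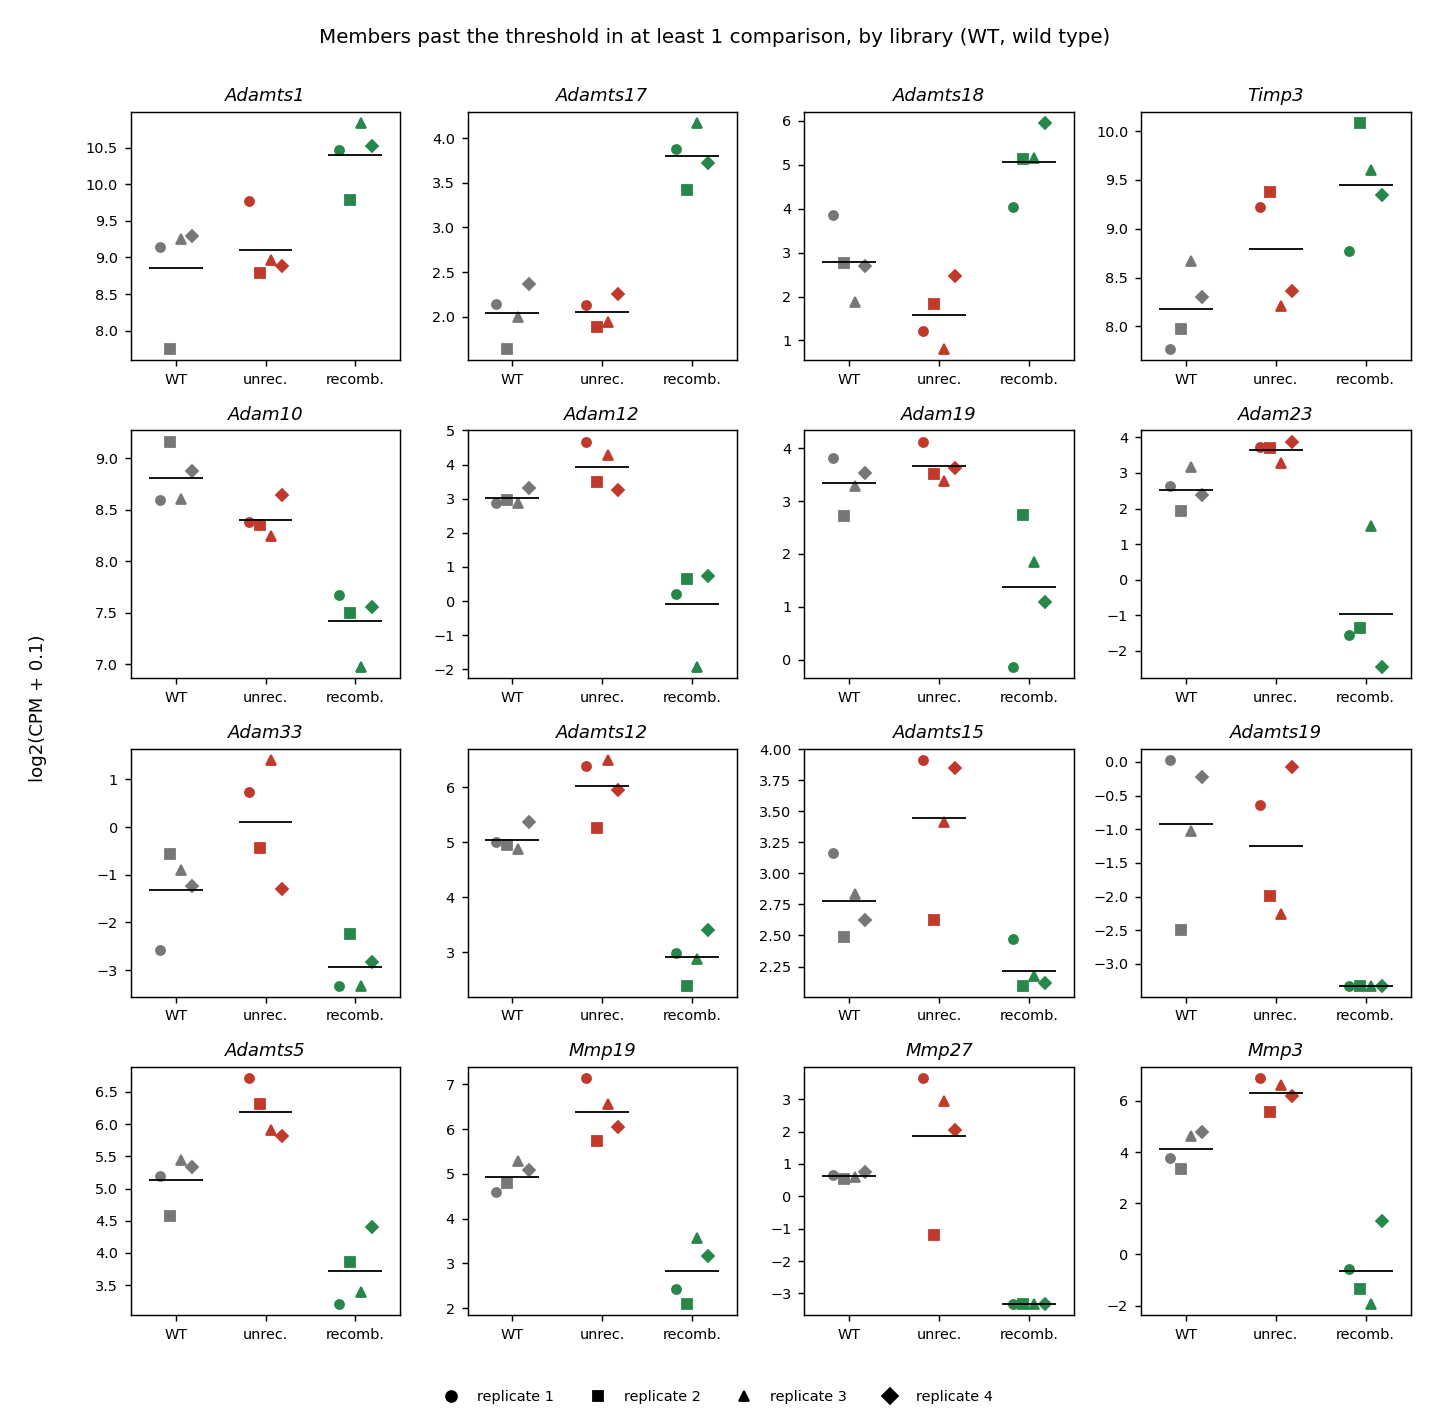
Levels of the 16 members past the threshold in at least 1 comparison, as log2(CPM + 0.1) by library, with a line at the mean of each group and 1 symbol shape per replicate number. The 4 panels at the top are the members higher in recombined cells and the other 12 are lower, among which Mmp27 and Adamts19 sit at 0 counts in all 4 recombined libraries.

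Among the ADAMs, Adam10 had the smallest adjusted p of all members against wild type (chromosome 9, 70526807 in mm9). It cuts Notch receptors after ligand binding and releases E-cadherin and several growth factors. Wild type libraries 1 to 4 had 387, 573, 388 and 471 CPM, unrecombined libraries 333, 327, 304 and 399 CPM and recombined libraries 205, 181, 126 and 188 CPM. Every recombined library was below every red library. The log2 fold change was -1.38 ± 0.18 against wild type (adjusted p = 0.00054, edgeR) and -0.96 ± 0.18 against unrecombined cells (adjusted p = 0.00531), the latter lost without recombined 3 and 4 (0.0609) and without the 5 libraries with salivary gland markers (0.0534). Unlike Mmp3 and Mmp19, Adam10 was not highest in unrecombined cells: the red groups differed by -0.42 ± 0.18.

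Its closest relative, Adam17, the enzyme that releases tumor necrosis factor and most ligands of the epidermal growth factor receptor, shares its entry with Iah1. It had 88.1, 76.1, 73.1 and 91.5 CPM in wild type, 95.6, 79.6, 79.8 and 80.1 CPM in unrecombined and 74.9, 64.0, 45.7 and 50.7 CPM in recombined libraries. Recombined libraries were all below unrecombined libraries but overlapped wild type libraries. Neither difference passed (-0.48 ± 0.17 against wild type, adjusted p = 0.117, and -0.51 ± 0.17 against unrecombined cells, adjusted p = 0.112, edgeR). Without recombined 1, the highest recombined library, both passed, at -0.62 ± 0.17 (adjusted p = 0.0358) and -0.65 ± 0.17 (adjusted p = 0.0335).

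Adam12, which cuts insulin-like growth factor binding proteins and is typical of activated stromal cells, was at 7.26, 7.70, 7.29 and 9.86 CPM in wild type, 25.4, 11.1, 19.2 and 9.47 CPM in unrecombined and 1.05, 1.47, 0.162 and 1.57 CPM in recombined libraries. It fell by a log2 fold change of -2.90 ± 0.52 against wild type (adjusted p = 0.00469, edgeR) and -3.92 ± 0.54 against unrecombined cells (adjusted p = 0.000608). Every recombined library had under 2 CPM, while the lowest red library had 7.26 CPM. The call against wild type was lost with weighted limma-voom (adjusted p = 0.0639) and without the 5 libraries with salivary gland markers (0.0596).

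Adam19 and Adam33, both proteolytic, passed against unrecombined cells with edgeR and not against wild type, and the difference between the comparisons was not tested. Adam19 had 14.0, 6.50, 9.69 and 11.5 CPM in wild type, 17.3, 11.3, 10.3 and 12.2 CPM in unrecombined and 0.806, 6.56, 3.50 and 2.02 CPM in recombined libraries, with recombined 2 just above wild type 2. Its log2 fold change was -1.99 ± 0.50 against unrecombined cells (adjusted p = 0.0335, edgeR) and -1.70 ± 0.50 against wild type (adjusted p = 0.0594). Against wild type it did pass with DESeq2 (-1.68, adjusted p = 0.0093), with limma-voom (-2.13, 0.0327), without recombined 2 (-2.32, 0.0149) and without the 5 libraries with salivary gland markers (-2.05, 0.0298). The call against unrecombined cells was lost on leaving out any 1 of recombined 3 or 4, unrecombined 1 to 4, or wild type 3 or 4, with an adjusted p between 0.0507 and 0.101, and in the fits of only the 2 groups (0.0854, and 0.054 with the replicate block) and without recombined 3 and 4 together (0.289). Adam33, whose entry also names mADAM33-alpha, was near the limit of detection, at 0.0681, 0.581, 0.436 and 0.323 CPM in wild type, 1.56, 0.641, 2.55 and 0.306 CPM in unrecombined and 0, 0.110, 0 and 0.0412 CPM in recombined libraries. It was -4.87 ± 1.20 against unrecombined cells (adjusted p = 0.0292), and leaving out any 1 of recombined 1, 3 or 4, unrecombined 1 or 3, or wild type 3 ended that call (0.051 to 0.0918), as did weighted limma-voom (0.145), leaving out the 5 libraries with salivary gland markers (0.134) and leaving out recombined 3 and 4 together (0.232).

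Adam23, which lacks a working protease site and acts as an adhesion protein, had 6.06, 3.68, 8.90 and 5.09 CPM in wild type, 13.0, 12.8, 9.63 and 14.6 CPM in unrecombined and 0.239, 0.293, 2.75 and 0.0824 CPM in recombined libraries. Unrecombined libraries were all above wild type libraries, and recombined libraries all below them, although recombined 3 was close. Its log2 fold change came to -2.87 ± 0.78 against wild type (adjusted p = 0.0419, edgeR) and -3.95 ± 0.81 against unrecombined cells (adjusted p = 0.0102). The fit of only these 2 groups (adjusted p = 0.135) and leaving out any 1 library other than recombined 3 ended the call against wild type (0.0562 to 0.103 without 1 library), and both calls were lost without the 5 libraries with salivary gland markers (0.226 against wild type and 0.173 against unrecombined cells).

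The other proteolytic ADAMs did not pass. Adam9, a broadly expressed sheddase, was at 51.5 to 56.4 CPM in wild type, 45.2 to 56.5 CPM in unrecombined and 40.5 to 55.9 CPM in recombined libraries (log2 fold change -0.25 ± 0.15). Adam15, in an entry joined with Efna4, gave 0.34 ± 0.34. Adam8, in an entry joined with other transcripts, was at 1.12, 0.98, 0.755 and 0.849 CPM in unrecombined and 2.81, 1.91, 1.72 and 8.16 CPM in recombined libraries, a difference of 1.97 ± 0.58 (adjusted p = 0.0692 with edgeR, 0.00944 with DESeq2). Of the 14 ADAMs known mainly from testis, 8 were tested and, with all 12 libraries, 0 passed against wild type or unrecombined cells with edgeR, DESeq2 or limma-voom, with 0 at an unadjusted p under 0.05 in edgeR. Adam5 was lower in recombined cells in 4 of 4 pairs of the same number, as were many other members. It had 2.64, 3.09, 0.503 and 1.36 CPM in unrecombined and 0, 2.86, 0 and 0 CPM in recombined libraries. Without recombined 2, the only recombined library with counts, Adam5 passed (adjusted p = 0.0344, edgeR). That fit has no count left in the recombined group, so the pass is no added support. The entry for Adam1a, at 92.1 to 123 CPM in wild type libraries, also names Mapkapk5, Naa25, Tmem116 and Erp29, so its reads cannot be assigned to Adam1a.

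The ADAMTS enzymes split in direction. Adamts1, which cuts the proteoglycans versican and aggrecan, was the most abundant member by length and was higher in recombined cells (chromosome 16, 85794072 in mm9). Wild type libraries 1 to 4 had 568, 215, 612 and 627 CPM, unrecombined libraries 878, 444, 502 and 470.2 CPM and recombined libraries 1422, 887, 1828 and 1475 CPM. Every recombined library exceeded every red library, though recombined 2 was only just above unrecombined 1. The log2 fold change was 1.47 ± 0.33 against wild type (adjusted p = 0.0158, edgeR) and 1.29 ± 0.33 against unrecombined cells (adjusted p = 0.0337). These calls rest on few libraries. Without recombined 3 the adjusted p was 0.0552 against wild type, and without recombined 1, 3 or 4 or unrecombined 2, 3 or 4 it was 0.0515 to 0.105 against unrecombined cells. With library weights in limma-voom the adjusted p was 0.0645 against wild type and 0.127 against unrecombined cells, and without a filter on low counts it was 0.0553 in the latter. Without both recombined 3 and 4 the difference was 1.18 (adjusted p = 0.216) against wild type and 1.01 (0.368) against unrecombined cells.

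Adamts5, the other main aggrecan-cutting enzyme, starts 64.3 kb from Adamts1 on chromosome 16 and went the opposite way. It had 36.4, 23.6, 43.3 and 40.2 CPM in wild type, 105, 79.7, 60.2 and 56.4 CPM in unrecombined and 9.14, 14.3, 10.4 and 21.0 CPM in recombined libraries, with no overlap between any of the groups. Recombined cells differed by -1.39 ± 0.29 against wild type (adjusted p = 0.0121, edgeR) and -2.45 ± 0.30 against unrecombined cells (adjusted p = 0.000273), while the red groups differed by 1.07 ± 0.29 (adjusted p = 0.537). Without the 5 libraries with salivary gland markers, the adjusted p against wild type was 0.0502.

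Adamts17 and Adamts18 were the other ADAMTS enzymes that rose. Adamts17, known for its part in fibrillin microfibrils, had 4.33, 3.02, 3.88 and 5.05 CPM in wild type, 4.27, 3.58, 3.74 and 4.69 CPM in unrecombined and 14.6, 10.6, 17.9 and 13.2 CPM in recombined libraries. The red groups overlapped, and recombined libraries were all above them, by a log2 fold change of 1.79 ± 0.29 against wild type (adjusted p = 0.00242, edgeR) and 1.79 ± 0.29 against unrecombined cells (adjusted p = 0.00202, and 0.0506 without the 5 libraries with salivary gland markers).

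Adamts18, a secreted protease of mammary myoepithelial cells known to act on the basement membrane, had 14.3, 6.70, 3.58 and 6.38 CPM in wild type, 2.21, 3.43, 1.65 and 5.43 CPM in unrecombined and 16.2, 35.1, 35.6 and 61.5 CPM in recombined libraries. Recombined 1 was the lowest of its group and lay just above wild type 1. It rose by a log2 fold change of 2.26 ± 0.50 against wild type (adjusted p = 0.0147, edgeR) and 3.54 ± 0.53 against unrecombined cells (adjusted p = 0.00109). The call against wild type was lost without wild type 4 (adjusted p = 0.0569), without the 5 libraries with salivary gland markers (0.0502) and without recombined 3 and 4 (0.174). Within the recombined group, both Adamts18 and the summed basal markers were lowest in library 1 (1660 CPM for the markers) and highest in library 4 (7388 CPM). The Hedgehog target Ptch1 had its lowest and highest recombined values in the same libraries (133 and 809 CPM). A link between them was not tested.

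Among the ADAMTS enzymes that fell, Adamts12, which cuts the matrix protein COMP, had the firmest call. Its level was 32.0, 30.9, 29.2 and 41.1 CPM in wild type, 83.3, 38.4, 90.3 and 61.6 CPM in unrecombined and 7.82, 5.17, 7.21 and 10.5 CPM in recombined libraries. The highest recombined library was far below the lowest red library. It fell by a log2 fold change of -2.12 ± 0.28 against wild type (adjusted p = 0.000685, edgeR) and -3.15 ± 0.29 against unrecombined cells (adjusted p = 2.27e-05). Against unrecombined cells it passed under all 28 alternative settings, as Mmp19 did.

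Adamts15 and Adamts19 were weaker cases. Adamts15, which also cuts proteoglycans, had 8.86, 5.50, 7.03 and 6.06 CPM in wild type, 15, 6.07, 10.5 and 14.3 CPM in unrecombined and 5.44, 4.18, 4.41 and 4.25 CPM in recombined libraries, all 4 recombined libraries being lowest. It passed against unrecombined cells (-1.33 ± 0.32, adjusted p = 0.0278, edgeR), not against wild type (-0.59 ± 0.32, adjusted p = 0.331). That call was lost without any 1 of recombined 2, 3 or 4 or unrecombined 1, 3 or 4 (adjusted p of 0.0555 to 0.11), with limma-voom (0.0607) and in the fits of only the 2 groups (0.0706, and 0.0679 with the replicate block). It was also lost without the 5 libraries with salivary gland markers (0.0964) and without recombined 3 and 4 together (0.194). Adamts19, a little-studied member, had no count in recombined libraries and under 1 CPM elsewhere: 0.920, 0.0774, 0.393 and 0.753 CPM in wild type and 0.543, 0.151, 0.108 and 0.849 CPM in unrecombined libraries. By group means it was at least 18.5-fold lower than in wild type cells (adjusted p = 0.0268, edgeR). Against unrecombined cells it was at least 14.3-fold lower (adjusted p = 0.0387). Both folds use the limit of 3 counts over the group, which covers counting noise only. Leaving out any 1 of recombined 2, 3 or 4 or wild type 1, 3 or 4 ended the call against wild type (0.0516 to 0.0716), and any 1 of 10 libraries, those other than unrecombined 3 and wild type 2, ended the call against unrecombined cells (0.0514 to 0.0977), as did limma-voom (0.0813, and 0.0679 with library weights) and the number series as a covariate (0.052). Both calls were lost without the 5 libraries with salivary gland markers (0.0874 against wild type and 0.14 against unrecombined cells). They were also lost without recombined 3 and 4 together (0.148 and 0.191).

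The other proteoglycan-cutting ADAMTS enzymes did not pass. Adamts4, the third aggrecanase, was at 187, 99.7, 133 and 66.3 CPM in unrecombined and 120.0, 34.9, 77.1 and 31.7 CPM in recombined libraries. Like many other members, it was lower in recombined cells in 4 of 4 pairs of the same number. It gave -0.88 ± 0.46 (adjusted p = 0.341) and, with the replicate number as a block, -1.0 ± 0.23 (adjusted p = 0.0249, edgeR). Adamts9 was at 52.6 to 80.9 CPM in wild type and 74.2 to 120.2 CPM in recombined libraries (0.50 ± 0.20, adjusted p = 0.165). Adamts20 was at 0.0724, 0.452, 0.0359 and 2.78 CPM in unrecombined and 1.31, 4.00, 7.32 and 10.3 CPM in recombined libraries, and passed against unrecombined cells only without unrecombined 4 (adjusted p = 0.0254) or in the fit of the 2 groups with the replicate block (0.0379). Adamts8, which starts 43.4 kb from Adamts15, gave 1.25 ± 0.52 against unrecombined cells (adjusted p = 0.209).

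With all 12 libraries, none of the 3 procollagen N-propeptidases, which trim fibrillar collagens, passed against wild type or unrecombined cells with edgeR, DESeq2 or limma-voom, and 1 of the 3 had an unadjusted p under 0.05 against unrecombined cells in edgeR. That was Adamts14, with 0.978, 0.98, 3.20 and 1.60 CPM in unrecombined and 0, 0.550, 0 and 0 CPM in recombined libraries. It passed without recombined 2 (adjusted p = 0.0405, edgeR), the only recombined library with counts. That fit has no count left in the recombined group, so the pass is no added support. Adamts2 was at 4.74, 5.19, 11.4 and 17.0 CPM in wild type, 19.6, 22.3, 22.0 and 15.3 CPM in unrecombined and 4.48, 5.35, 20.6 and 19.7 CPM in recombined libraries, and recombined 3 and 4 lay within the unrecombined range. Their substrates were far lower: Col1a1 was at 94.0 to 291 CPM in wild type and 4.14 to 12.2 CPM in recombined libraries. Of the 4 ADAMTS-like genes tested, whose products bind matrix but have no protease domain, 0 passed with edgeR (1 at an unadjusted p under 0.05 against wild type) and Adamtsl1 passed with DESeq2 (log2 fold change 1.63 ± 0.57, adjusted p = 0.0394). Adamtsl1 was at 2.90, 5.77, 9.08 and 8.28 CPM in wild type and 1.97, 18.5, 31.9 and 27.0 CPM in recombined libraries, and without recombined 1, the lowest, it passed with edgeR (1.99 ± 0.36, adjusted p = 0.00456).

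Among the inhibitors, Timp3 rose in recombined cells relative to wild type, and the other 3 TIMPs did not pass. Timp3, whose product is bound to the matrix and blocks ADAM10, ADAM17 and aggrecan-cutting ADAMTS enzymes as well as MMPs, lies within Syn3, and its entry names both. It had 218, 250.2, 406 and 315 CPM in wild type, 596, 662, 296 and 329 CPM in unrecombined and 436, 1082, 779 and 649 CPM in recombined libraries. Recombined libraries were all above wild type libraries but overlapped unrecombined libraries, of which numbers 1 and 2 were the higher. The log2 fold change was 1.31 ± 0.31 against wild type (adjusted p = 0.0232, edgeR) and 0.65 ± 0.31 against unrecombined cells (adjusted p = 0.293). Leaving out any 1 of recombined 2 or 3 or wild type 1, 2 or 4 ended the call (adjusted p of 0.0588 to 0.0735), as did leaving out recombined 3 and 4 together (0.154).

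Timp2, which blocks MMP2 and also takes part in its activation by MMP14, was at 93.6, 95.5, 145 and 153 CPM in wild type, 198, 143, 178 and 131 CPM in unrecombined and 110.0, 129.6, 115 and 145 CPM in recombined libraries (0.04 ± 0.20 against wild type, adjusted p = 0.948). Timp1, an inducible secreted inhibitor, was low, with 6.30, 2.98, 4.89 and 3.30 CPM in wild type, 6.77, 3.43, 6.22 and 2.38 CPM in unrecombined and 6.03, 1.58, 4.09 and 1.48 CPM in recombined libraries (-0.40 ± 0.52, adjusted p = 0.727). Timp4 was near 0, with 1.46, 0.0387, 1.22 and 0.287 CPM, 0.797, 0.301, 0.216 and 0.441 CPM and 0.179, 0.330, 0 and 0.701 CPM in the same order of groups (adjusted p = 0.567 against wild type). All 3 overlapped between all groups. Timp1 was lower in recombined than in unrecombined libraries in 4 of 4 pairs of the same number, Timp2 in 3 and Timp4 in 2. Agreement in 4 of 4 pairs was common among the tested members, and its share over all loci was not counted. None of these 3 TIMPs passed with the replicate number as a block.

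The red groups differ in Cre in the animal, in SmoM2-positive neighbors and in the removal of green cells by sorting. These differences cannot be told apart. Between the red groups, 7 members were higher in every unrecombined library than in every wild type library, and 1 was lower in every one, beside 2.86% and 1.55% of all loci. The 7 were Adam23, Adamts5, Adamtsl1, Mmp2, Mmp3, Mmp16 and Mmp19, and the 1 was Adam8. No member passed with edgeR, 2 passed with DESeq2 (Mmp3 and Mmp19), 1 with limma-voom (Mmp3) and 2 with library weights (Mmp3 and Mmp19). Over all loci the share passing with edgeR was 0%. The fibroblast markers had a median log2 fold change of 1.5 in this comparison, with 0 of 8 passing and 7 of 8 at an unadjusted p under 0.05.

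Genes known to act with the proteases were taken from lists by role. Against wild type, 4.17% of all loci were called higher and 2.38% lower. Against unrecombined cells the shares were 3.08% and 2.14%. With lists this short, a single call is little beyond those shares. Of the 8 tested ADAM10 and ADAM17 partners, which carry these enzymes to the cell surface, 1 rose: the tetraspanin Tspan5, a partner of ADAM10, was at 21.6 ± 3.68 CPM (SD, n = 4) in wild type and 71.2 ± 29.5 CPM in recombined libraries (1.72 ± 0.33, adjusted p = 0.00646, edgeR), and it also rose against unrecombined cells (adjusted p = 0.0122). Both calls were lost without recombined 3 and 4 (0.088 and 0.155). Of the 7 ErbB ligands that ADAMs release, 1 fell: Areg, amphiregulin, a substrate of ADAM17, was at 369 ± 168 CPM in wild type and 102 ± 63.7 CPM in recombined libraries (-1.86 ± 0.44, adjusted p = 0.0235). Leaving out any 1 of recombined 1 or 4 or wild type 1 or 2 ended this call (adjusted p of 0.0507 to 0.0756), as did weighted limma-voom (0.0583), a fit with no filter on low counts (0.051) and leaving out recombined 3 and 4 (0.203). Against unrecombined cells Areg did not pass with edgeR (-1.29 ± 0.44, adjusted p = 0.119) but passed with the replicate number as a block (-1.44, adjusted p = 0.00301), with DESeq2 (0.026), with the number series as a covariate (0.0313) and without recombined 2 (0.0272). DESeq2 called 2 of the 7 ligands lower in each comparison.

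Of the 6 tested ADAMTS substrates, 1 rose and 3 fell against wild type. Vcan, versican, a substrate of ADAMTS1, rose from 85.9 ± 80.2 to 458 ± 244 CPM (2.41 ± 0.57, adjusted p = 0.0252, edgeR). Leaving out any 1 of recombined 2 or 4 or wild type 2, 3 or 4 ended this call (adjusted p of 0.0503 to 0.0883), as did leaving out recombined 3 and 4 (0.215) or the 5 libraries with salivary gland markers (0.0849), a fit with no filter on low counts (0.0685) and the number series as a covariate (0.0522). Col1a1, Col1a2 and Col3a1 fell by log2 fold changes of -4.64 ± 0.45, -3.06 ± 0.42 and -4.89 ± 0.37, and these 3 are also on the fibroblast list. Of the 3 surface docking genes, the hyaluronan receptor Cd44 rose from 234 ± 66.8 to 607 ± 249 CPM (1.38 ± 0.35, adjusted p = 0.0294, edgeR). Leaving out any 1 of recombined 2 or 3 or wild type 1, 2 or 4 ended this call (adjusted p of 0.0539 to 0.101), as did weighted limma-voom (0.0557), the number series as a covariate (0.0643), leaving out the 5 libraries with salivary gland markers (0.0531) and leaving out recombined 3 and 4 (0.27). Against unrecombined cells Cd44 gave 0.71 ± 0.34 (adjusted p = 0.296) and passed with the replicate number as a block (0.74, adjusted p = 0.00823).

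Of the 8 tested proteases that activate the members, 1 rose against wild type: the entry that joins the proprotein convertase Pcsk7 with Bace1, Tagln and others (0.82 ± 0.17, adjusted p = 0.0109, edgeR), whose reads cannot be assigned to Pcsk7. This call was lost without recombined 3 and 4 (0.118). Against unrecombined cells Plat, the tissue plasminogen activator, fell (-1.06 ± 0.23, adjusted p = 0.0165), a call lost without unrecombined 1 (0.0611) and without the 5 libraries with salivary gland markers (0.215). Of the 7 other inhibitors and clearance receptors, 0 passed against wild type or unrecombined cells with edgeR, DESeq2 or limma-voom, with 2 of 7 at an unadjusted p under 0.05 in edgeR in each comparison. Among them the membrane-bound MMP inhibitor Reck was at 20.6 ± 8.85 CPM in wild type, 47.1 ± 15 CPM in unrecombined and 26.6 ± 8.11 CPM in recombined libraries.

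The 18 members under the filter had at most 56 counts in any library, and 12 of them at most 20. Beside the 7 MMPs given above they were Adam11, Adam18, Adam2, Adam24, Adam25, Adam28, Adam39 and Adam7, with at most 1 to 40 counts, and Adamts13, Adamts16 and Adamtsl2, with at most 20, 29 and 56 counts. In a fit with no filter on low counts, 0 of the 18 passed in any of the 3 comparisons with edgeR, with 1 at an unadjusted p under 0.05 against wild type, 2 against unrecombined cells and 1 between the red groups. The lowest adjusted p was 0.121, for Adam7, whose counts were all in unrecombined libraries.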

How the data were processed

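Gene-level read counts from 12 RNA-seq libraries of sorted mouse mammary epithelial cells were analysed as deposited by the authors. Per the submitters' processing notes, the reads were processed with HTSeq 0.3.1 and STAR on build mm9, and the order and settings of these steps are not given in the sources used here. The count table has 36635 entries, of which 16521 name several loci and were left out, since reads there cannot be assigned to 1 gene. The filter of edgeR 4.0.16 (minimum count 10, minimum total 15) left 14039 loci, and the quasi-likelihood test was run on all 12 libraries in 1 fit, with scaling by the trimmed mean of M values. R 4.3.3, limma 3.58.1, DESeq2 1.42.0, pandas 2.3.3 and matplotlib 3.10.9 were used, and the test was tested on simulated data. The median SE of a log2 fold change was 0.37, and depth sets the precision for low genes. No 2 libraries of a group agreed within sampling noise (chi-square per degree of freedom of at least 42.1).

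Members and gene lists were chosen with earlier results of these data known. The members named with every library are those past the threshold in any of the 3 comparisons and a set listed by function (Mmp2, Mmp3, Mmp7, Mmp9, Mmp11, Mmp14, Adam10, Adam17, Adamts1, Adamts5 and the TIMPs), with counts for those under the filter. Others are named by role, and up to 4 genes of each partner or marker list by smallest p. Values of single libraries given for other members were chosen after their values were seen. Replicate numbers in the labels were checked for pairing. Recombined and unrecombined libraries of the same number correlated in their deviations from the group mean (0.239 to 0.399, different numbers -0.24 to -0.0345), so these groups may be paired by number. Centering on the mean of 4 libraries itself pushes the values for different numbers down when those for the same number are positive. Wild type libraries did not pair with recombined libraries (-0.0314 to 0.185). The labels state no pairing, so the main fit is unpaired and the replicate number is a block only in alternative settings. The block fit of all 12 libraries places wild type libraries in these blocks too. Values per length use exon lengths from GENCODE M21.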

Additional observations from a re-analysis of the deposited data

Results flagged for a closer look

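Among 67 groups of 4 libraries examined, 7 had 1 library far from the other 3, and chance alone gives about 1 in 20. Adamts1 was at 215 CPM in wild type 2, against 568 to 627 CPM in the other wild type libraries, and at 878 CPM in unrecombined 1, against 444 to 502 CPM. Adam17 was at 95.6 CPM in unrecombined 1, against 79.6 to 80.1 CPM. Adam23 was at 2.75 CPM in recombined 3, against 0.0824 to 0.293 CPM. Mmp11 was at 12.4 CPM in unrecombined 1, against 2.19 to 3.31 CPM, and at 5.77 CPM in recombined 4, against 0.808 to 1.47 CPM. Mmp14 was at 44.7 CPM in unrecombined 2, against 75.9 to 78.7 CPM. The 7 values lie in 5 libraries, of which wild type 2 and unrecombined 1 and 2 also hold salivary gland markers, and the part of those in the values was not tested.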

How the results depend on the processing

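There were 27 alternative settings against wild type and 28 against unrecombined cells. No call of a member changed direction in any setting that gave it an adjusted p. Adamts19 had one in 24 settings against wild type and 25 against unrecombined cells. In the latter comparison Adam33 had one in 25 and Mmp27 in 26. The settings without the 5 libraries with salivary gland markers, within series 24, and with the replicate block in only 2 groups were chosen after seeing the data. The count of members against wild type was 13 and became 8 without recombined 3 and 4, 2 within series 23 and 0 within series 24, and 9 to 16 on leaving out 1 library. Against unrecombined cells it was 15 and became 9, 6 and 3 in these settings, and 10 to 15 on leaving out 1 library. Between the red groups it was 0, with 2 by DESeq2, 1 by limma-voom and 2 with library weights. Over all loci, 920 passed against wild type, with 1617 by DESeq2, 594 in the fit of only the 2 groups, 248 without recombined 3 and 4, 75 within series 23, 17 within series 24 and 502 to 1217 on leaving out 1 library. Against unrecombined cells 733 passed, with 1349 by DESeq2, 282 without recombined 3 and 4, 106 within series 23, 115 within series 24 and 449 to 1044 on leaving out 1 library. Between the red groups 0 passed, with 78 by DESeq2, 18 by limma-voom, 61 with library weights, 8 in the fit of only the 2 groups and 1 with the replicate block. With the replicate block, 13 members passed against wild type and 17 against unrecombined cells, which added Mmp16 and Adamts4. Over all loci the replicate block gave 1194 and 980. The fit of recombined and unrecombined cells alone with the replicate block gave 13 members. Fewer libraries enter the fits within a series and without 2 libraries; the cause of the other shifts was not tested. The 18 members under the filter had at most 56 counts in any library.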
